A study of Mus musculus with 8 samples.

Results

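The mouse genes Dnmt1, Uhrf1, Uhrf2, Dnmt3a, Dnmt3b, Tdg and Mbd2 encode the DNA methyltransferases and proteins that guide them, repair their products or read their mark. Open chromatin at these 7 loci was taken from ATAC-seq, in which a transposase cuts accessible DNA. A peak belonged to a locus when it overlapped the RefSeq gene body on build GRCm38/mm10 or the 10 kb on either side. Of 835203 deposited peaks, 436 met this rule. Peaks of different libraries that shared at least 1 bp were merged, and the loci then held 90 of 175276 regions.

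The series holds 8 libraries of naive CD4 T cells from mouse spleen. Every culture received antibodies to CD3 (0.25 ug/mL) and CD28 (1 ug/mL) and 20 ng/mL TGF-b for 48 h, the conditions that induce regulatory T cells, and 90000 cells were used per library. The 4 groups of 2 libraries were Tet1/3 cDKO cells with 100 U IL-2, Tet1/3 cDKO cells with TGF-b only, control cells with 100 U IL-2 and control cells with TGF-b only. The series text describes the cDKO cells as Tet1/3-deficient, the controls are labelled WT, and the design asks how loss of these enzymes and added IL-2 change chromatin. The sources used here do not give the Cre driver, the deleted exons or the animals behind each library. The replicates are called biological, but because their animals are not named, p-values measure the spread between these libraries.

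DNMT1 copies methylation onto the new strand after DNA replication. UHRF1 recognises the hemimethylated site and brings DNMT1 there, and UHRF2 is its paralogue. DNMT3A and DNMT3B place methyl groups on unmethylated sites. TET enzymes oxidise methylated cytosine, and TDG excises the further oxidised bases so that repair can restore cytosine. MBD2 binds methylated CpG sites and recruits the NuRD remodelling and deacetylase complex. In T cells, Dnmt1, Uhrf1 and Mbd2 are known to affect the stability of Foxp3 expression, and Dnmt3a restrains switching between helper lineages.

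Deposited lists held 96752 to 115250 peaks in cDKO libraries and 65811 to 145979 in control libraries, and read depth is unknown. The main comparisons therefore used equal-number lists, the 65811 peaks with the highest −log10 p in each library, in which rank 1 is the strongest peak. The −log10 p at the end of these lists ran from 3.25 in control + IL-2 replicate 2, the shortest list, to 13.5 in control replicate 1, the longest. Replicates of a group had Spearman correlations of 0.864 to 0.933 between the ranks of the regions that every list held. Regions at 8 CD4 T cell markers summed to 40 to 46 in cDKO lists and 41 to 48 in control lists, and 4 B cell markers to 13 to 15 and 12 to 14. Myeloid markers (4 genes) summed to 13 to 16 in cDKO lists and 11 to 15 in control lists, and the erythroid marker Hbb-bs and the NK cell marker Ncr1 were at 0 throughout. The induced Treg markers Foxp3, Il2ra, Ctla4 and Ikzf2 summed to 31 to 35 in cDKO and in control lists, and Cd8a and Cd8b1 to 4 in cDKO lists and to 3 to 4 in control lists. The part of such cells in the results below was not tested. Deletion could not be checked from peaks, since the deleted stretches are not given. A rank gives a peak's place among the other peaks of its list, and a site open in more cells cannot be told apart from one more open per cell.

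The 90 regions were unevenly spread over the loci. Dnmt3a held 27, Mbd2 20, Uhrf2 13, Dnmt1 11, Dnmt3b 8, Tdg 6 and Uhrf1 5, in windows that also differ in length. Of these, 67 overlapped the gene body and 23 lay in the flanks. The equal-number lists held 51 of them in at least 1 library and 29 in all 8. Regions in all 8 lists were wide, with a median of 661 bp, against 192 bp for the other 61. A region spans the peaks of every library that lists it, so its width depends in part on how many do. A single deposited list held 25 of the 90. Exons and introns were not analysed here, because the gene table gives gene bodies only.

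**Figure D1:**
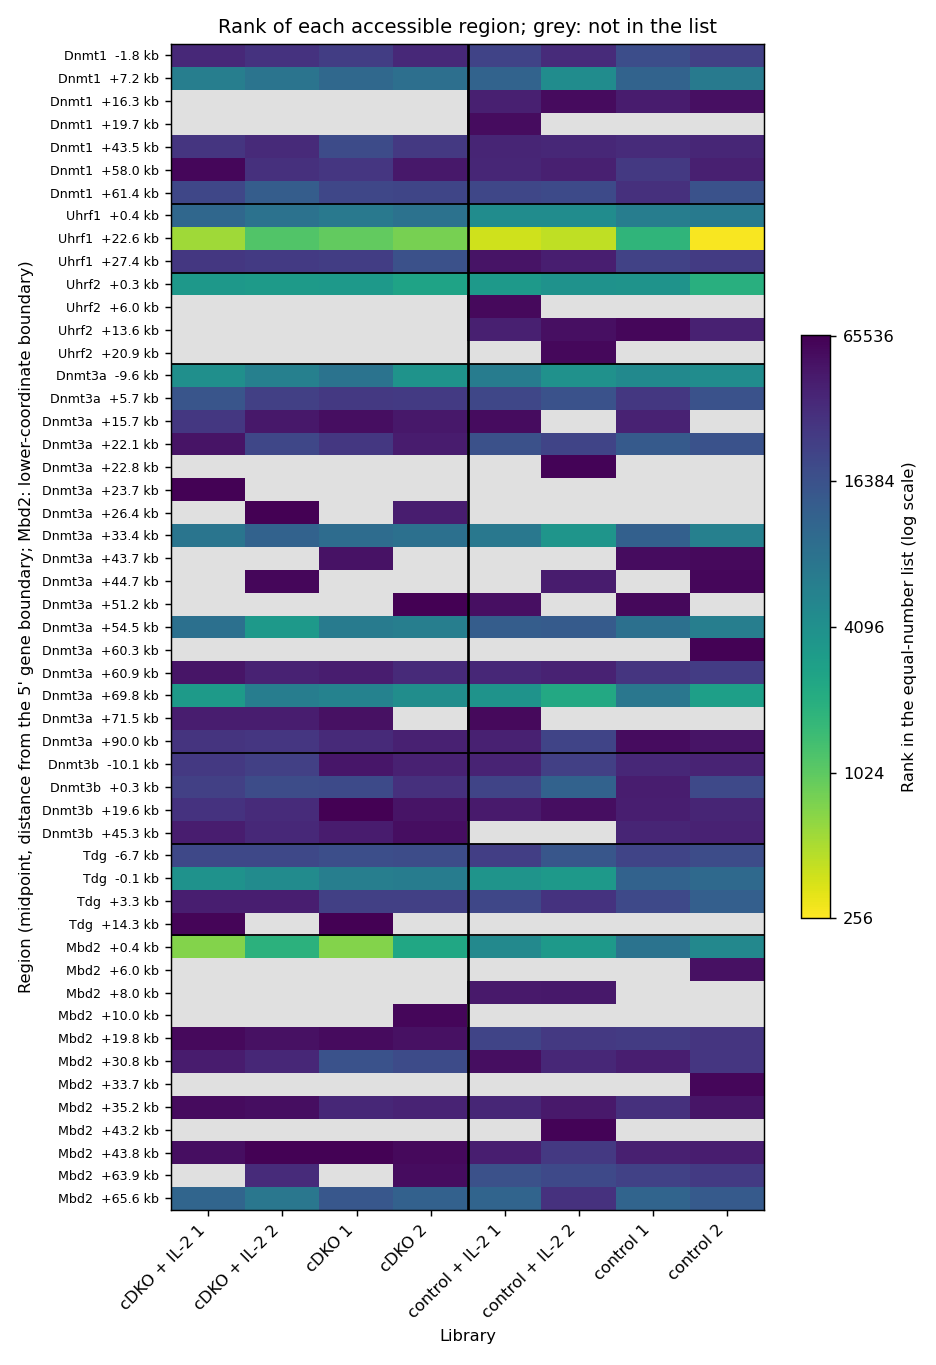
Rank of the 51 member regions in each equal-number list (colour, log scale, yellow strongest), with libraries in columns and regions in rows ordered by gene and by distance of the midpoint from the gene's 5′ boundary in kb (for Mbd2 the lower-coordinate boundary). Grey marks a region absent from that list, and 29 rows are filled in all 8 columns. The row Mbd2 +0.4 kb is nearer the top in the 4 cDKO columns and Mbd2 +19.8 kb in the 4 control columns.

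The locus windows also took in neighbours. The Dnmt1 window held 1 region at Eif3g and 1 at S1pr2, the Uhrf1 window 3 at Kdm4b, the Uhrf2 window 1 at Gldc and the Tdg window 1 at 1190007I07Rik. Just inside the Dnmt3a limit, a region lay 9.99 kb from the gene body with a best rank of 94804 in the deposited lists, and just outside it one lay 11.7 kb away with a best rank of 39152. For Uhrf1, the region just inside lay 9.65 kb away (best rank 69664) and the one just outside 11.6 kb away (best rank 4967). Tdg had its last region inside at 6.01 kb (best rank 15046) and its first outside at 11.7 kb (best rank 34608). For Mbd2 these lay at 4.55 kb (71767) and 11.1 kb (80363), for Dnmt1 at 9.87 kb (98242) and 13.9 kb (110263), for Dnmt3b at 9.74 kb (23114) and 12.2 kb (140994), and for Uhrf2 at 6.79 kb (145165) and 13.0 kb (56639).

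Gene starts were open at every locus with a listed start. RefSeq on GRCm38.p6 lists 11 starts for 6 of the genes, and none was listed for Mbd2. Over the 8 libraries, the median rank of the region at the gene start was 3297 for Uhrf2 (1993 to 3883), 5331 for Tdg (3286 to 11375), 6908.5 for Uhrf1 (4389 to 10263) and 8280.5 for Dnmt1 (4382 to 11288). It was 20218.5 for Dnmt3b (11413 to 42508), 21565 for the main starts of Dnmt3a (15181 to 26916) and 36900.5 for its downstream start (21078 to 54928). The region at the lower-coordinate boundary of Mbd2 had a median of 2827 (712 to 7948). The ranges of neighbours in this order overlapped, except that every rank at the Dnmt1 start was below every rank at the Dnmt3b start. The de novo methyltransferase genes thus had their start peaks further down the lists than Dnmt1, Uhrf1, Uhrf2 and Tdg in these libraries. Ranks by −log10 p depend on a peak's height over its background and are no measure of transcription.

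Start sequences at Dnmt1, Uhrf1, Dnmt3a and Tdg are shown so that their CpG content can be set beside the ranks, with CpG dinucleotides in capitals. They are RefSeq sequences of build GRCm38.p6, 250 bases before to 50 after each start, on the strand of the gene.
Dnmt1 upstream start, chr9:20959839-20960138, minus strand: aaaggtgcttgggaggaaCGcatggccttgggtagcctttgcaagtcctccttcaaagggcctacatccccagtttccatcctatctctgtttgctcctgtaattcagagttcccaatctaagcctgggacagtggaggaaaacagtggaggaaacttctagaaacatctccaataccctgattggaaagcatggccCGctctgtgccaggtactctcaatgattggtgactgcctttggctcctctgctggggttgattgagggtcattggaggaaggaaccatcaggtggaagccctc
Dnmt1 downstream start, chr9:20952574-20952873, minus strand: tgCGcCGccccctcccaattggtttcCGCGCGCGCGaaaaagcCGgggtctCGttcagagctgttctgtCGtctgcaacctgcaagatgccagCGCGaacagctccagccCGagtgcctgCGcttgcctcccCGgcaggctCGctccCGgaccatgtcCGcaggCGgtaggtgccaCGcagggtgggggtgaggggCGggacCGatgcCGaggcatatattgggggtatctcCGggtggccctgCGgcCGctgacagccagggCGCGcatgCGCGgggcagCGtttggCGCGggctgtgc
Uhrf1 downstream start, chr17:56304063-56304362, plus strand: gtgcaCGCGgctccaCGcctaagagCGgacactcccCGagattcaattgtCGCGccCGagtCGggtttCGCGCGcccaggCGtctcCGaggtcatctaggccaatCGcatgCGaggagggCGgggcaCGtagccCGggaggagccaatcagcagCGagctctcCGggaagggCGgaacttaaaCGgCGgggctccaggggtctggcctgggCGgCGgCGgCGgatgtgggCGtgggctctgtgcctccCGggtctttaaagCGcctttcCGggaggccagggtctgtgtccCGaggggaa
Dnmt3a first start, chr12:3806730-3807029, plus strand: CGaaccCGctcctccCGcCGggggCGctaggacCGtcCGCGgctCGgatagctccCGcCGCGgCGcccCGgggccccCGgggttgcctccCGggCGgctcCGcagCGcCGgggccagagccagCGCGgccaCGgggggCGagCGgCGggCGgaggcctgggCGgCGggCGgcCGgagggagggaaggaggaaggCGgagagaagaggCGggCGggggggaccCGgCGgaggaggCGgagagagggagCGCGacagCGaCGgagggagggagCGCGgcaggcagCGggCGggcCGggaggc
Dnmt3a downstream start, chr12:3891494-3891793, plus strand: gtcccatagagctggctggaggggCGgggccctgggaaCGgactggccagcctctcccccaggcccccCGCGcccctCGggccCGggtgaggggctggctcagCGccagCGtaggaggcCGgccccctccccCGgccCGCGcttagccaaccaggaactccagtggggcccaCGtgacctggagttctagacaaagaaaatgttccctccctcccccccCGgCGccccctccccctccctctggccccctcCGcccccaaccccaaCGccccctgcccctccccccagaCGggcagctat
Tdg start, chr10:82629588-82629887, plus strand: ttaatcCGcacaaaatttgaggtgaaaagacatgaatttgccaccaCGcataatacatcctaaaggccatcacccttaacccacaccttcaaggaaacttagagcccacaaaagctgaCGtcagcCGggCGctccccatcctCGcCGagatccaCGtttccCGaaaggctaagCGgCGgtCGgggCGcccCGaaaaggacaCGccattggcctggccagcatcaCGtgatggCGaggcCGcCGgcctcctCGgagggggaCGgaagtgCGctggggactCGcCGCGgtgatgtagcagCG

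The upstream Dnmt1 sequence held 2 CpG and no library listed a region over it, even in the full deposited lists; the nearest region began 1678 bp away. Its downstream sequence held 33 CpG and lay in a region of all 8 lists. In mouse, the oocyte-specific first exon of Dnmt1 lies upstream of the somatic one. Across all 32851 RefSeq starts, 54.8% were in no region and had a median of 3 CpG, and 37.3% were in a region of all 8 lists and had a median of 22. The other 10 member starts were all in regions of the second kind, with 12 to 47 CpG. CpG content did not follow the order of the start ranks, since Dnmt3a had 46 and 47 CpG at its 2 main starts, 18 at its downstream start and the furthest ranks. Dnmt3b had 30, Uhrf2 28, Tdg 26 and Uhrf1 12 and 33.

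Short motifs were searched on both strands of the 11 sequences, each motif on its own, so matches of different motifs may share bases. The sequences of the main Dnmt3a starts, chr12:3806730-3807029 and chr12:3806910-3807209, overlap, so the 11 are not all separate stretches. The GC box GGGCGG was in 8 of the 11 sequences, among them both of these, and in 35.7% of all 32851. CCAAT was in 5, at Dnmt1, Tdg and Uhrf1, and in 37.4% of all. The E2F-type letters TTTCGCGC were in 1 sequence each of Dnmt1 and Uhrf1 and in 0.323% of all, and TTTGGCGC in 1 of Dnmt1 and in 0.514% of all. CACGTG was at Tdg and the downstream start of Dnmt3a and in 7.15% of all, and the STAT-type TTCNNNGAA at Tdg and in 8.3% of all. The NRF1 motif was in 2 sequences of Dnmt1 and in 0.971% of all. The letters TTTCCCGC, CCGGAAG and GTCTAGAC were in none of the 11 (1.07%, 8.86% and 0.213% of all). A match describes letters and does not show binding.

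Loss of Tet1 and Tet3 went with changed ranks at few of these regions, most of them at Mbd2. In cDKO cells the region at the lower-coordinate boundary of Mbd2 lay nearer the top of the lists, while 2 regions within the Mbd2 gene body and 1 within Dnmt3a lay further down. A region within Dnmt1 and one within Uhrf2 were in every equal-number control list and in no equal-number cDKO list. Of all regions in a list, 1.12 percent were so. With the full deposited lists, or only peaks of −log10 q of at least 5, 0 member regions were. No start region of the 6 other genes passed the test. In limma on log2 rank, 4 of the 29 regions in all 8 lists had an adjusted p under 0.05, 1 nearer the top and 3 further, which is 13.8%. Of all 40694 regions tested the same way, 9.0 percent passed, 4.03 percent nearer and 4.97 percent further. With 29 regions, a count of 4 lies close to what the overall share would give. The count was 2 without cDKO replicate 1 or 2 and 1 without cDKO + IL-2 replicate 1, where 4.2, 4.03 and 3.73 percent of all regions passed. The median difference was 0.08 log2 units over the 29 and -0.04 over all regions, and ranks of the cDKO and control libraries did not overlap at 4 of the 29 (1 nearer, 3 further, where 6.15 and 5.72 percent of all regions did so). Differences are cDKO minus control, so a negative value is nearer the top in cDKO cells.

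**Figure D2:**
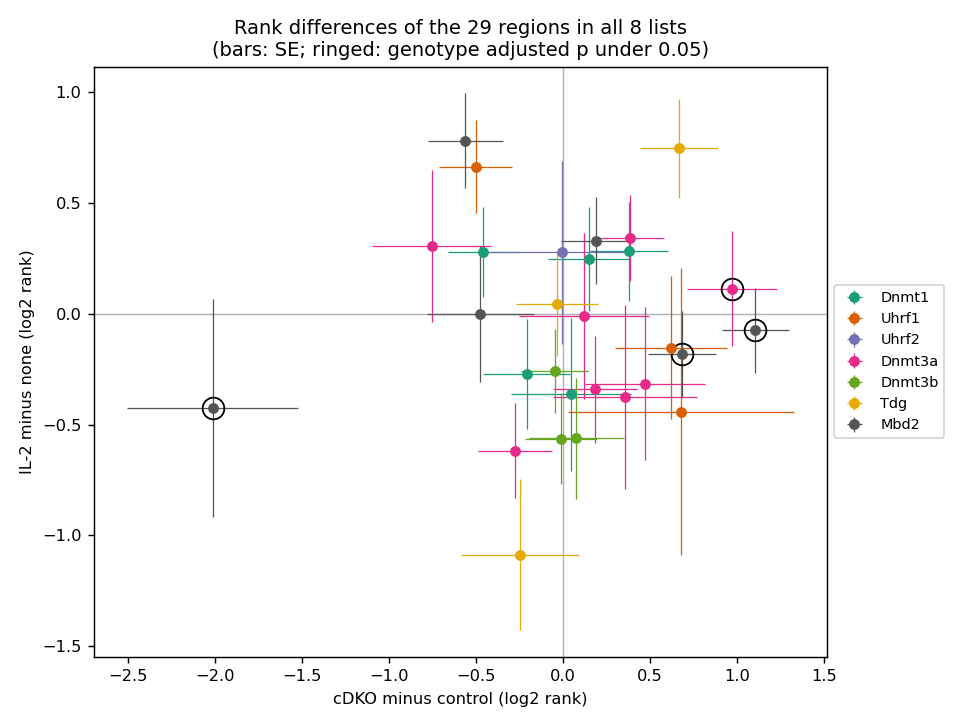
Difference in log2 rank for the 29 regions in all 8 lists, cDKO minus control on the horizontal axis and IL-2 minus none on the vertical axis, with SE bars, coloured by gene. Rings mark the 4 regions with a limma adjusted p under 0.05 for genotype: the Mbd2 boundary region at -2.01, Mbd2 at 1.10 and 0.69, and Dnmt3a at 0.97. No region passed for IL-2.

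Dnmt1 (chr9:20907206-20959888, minus strand) had its strongest region over its 2 downstream starts, at chr9:20952181-20953240. Its summits lay between 10 and 67 bp downstream of the middle one of its 3 starts. Ranks there were 6180 and 7854 in cDKO cells with IL-2 and 9998 and 8707 in cDKO cells without, against 11248 and 4382 in control cells with IL-2 and 11288 and 6690 in control cells without. The ranges overlapped, and the difference was 0.05 ± 0.34 (SE, n = 4 libraries per side), with a limma adjusted p of 0.958. The direction depended on which single library was left out.

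The region of Dnmt1 that separated the genotypes lay inside the gene at chr9:20943427-20943769, 16.29 kb from the 5′ boundary. No equal-number cDKO list held it, whereas it ranked 40619 and 55795 in control lists with IL-2 and 43153 and 51938 in control lists without. Of the full deposited lists, only cDKO + IL-2 replicate 2 among the cDKO libraries held a peak there, at rank 92992. It has no rank test, since no equal-number cDKO list gives it a rank. The other Dnmt1 regions in all 8 lists differed by -0.46 to 0.38 and none passed.

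Uhrf1 (chr17:56303337-56323486, plus strand) had 3 regions in every list. Its start region, chr17:56302921-56304614, ranked 10263 and 8087 in cDKO cells with IL-2 and 6939 and 8154 in cDKO cells without, against 4389 and 4415 in control cells with IL-2 and 6309 and 6878 in control cells without. Every cDKO rank was further down than every control rank. The difference of 0.62 ± 0.32 did not pass (limma adjusted p = 0.257). The strongest region of all 7 windows, chr17:56325381-56326408, overlapped the gene body of the neighbour Kdm4b, a histone demethylase gene, and ranked 568 to 1161 in cDKO lists and 271 to 1755 in control lists.

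Uhrf2 (chr19:30030430-30093726, plus strand) had 1 region in all 8 lists, over its start at chr19:30030005-30031366, with summits between -107 and -38 bp from the start (negative values upstream). Ranks were 3402 and 3217 in cDKO cells with IL-2 and 3298 and 2612 in cDKO cells without, against 3296 and 3883 in control cells with IL-2 and 3774 and 1993 in control cells without. They overlapped, with a difference of -0.01 ± 0.41 (limma adjusted p = 0.995). A region 13.59 kb into the gene, chr19:30043681-30044357, was in no cDKO list of equal number, against ranks of 40150 and 52612 in control lists with IL-2 and 59239 and 39489 in control lists without. The deposited lists of the cDKO libraries without IL-2 had it at 71801 and 68468, close to the end of the equal-number lists. These regions of Dnmt1 and Uhrf2 were the 2 of 51 called lower in cDKO cells by presence in every control list and no cDKO list, and 0 of 51 were called higher. The presence call depended on where the lists end: 0 regions were called lower with the full deposited lists, and 0 with only peaks of −log10 q of at least 5. Over all 95899 regions in a list, 1.12 percent were lower and 0.706 percent higher.

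**Figure D3:**
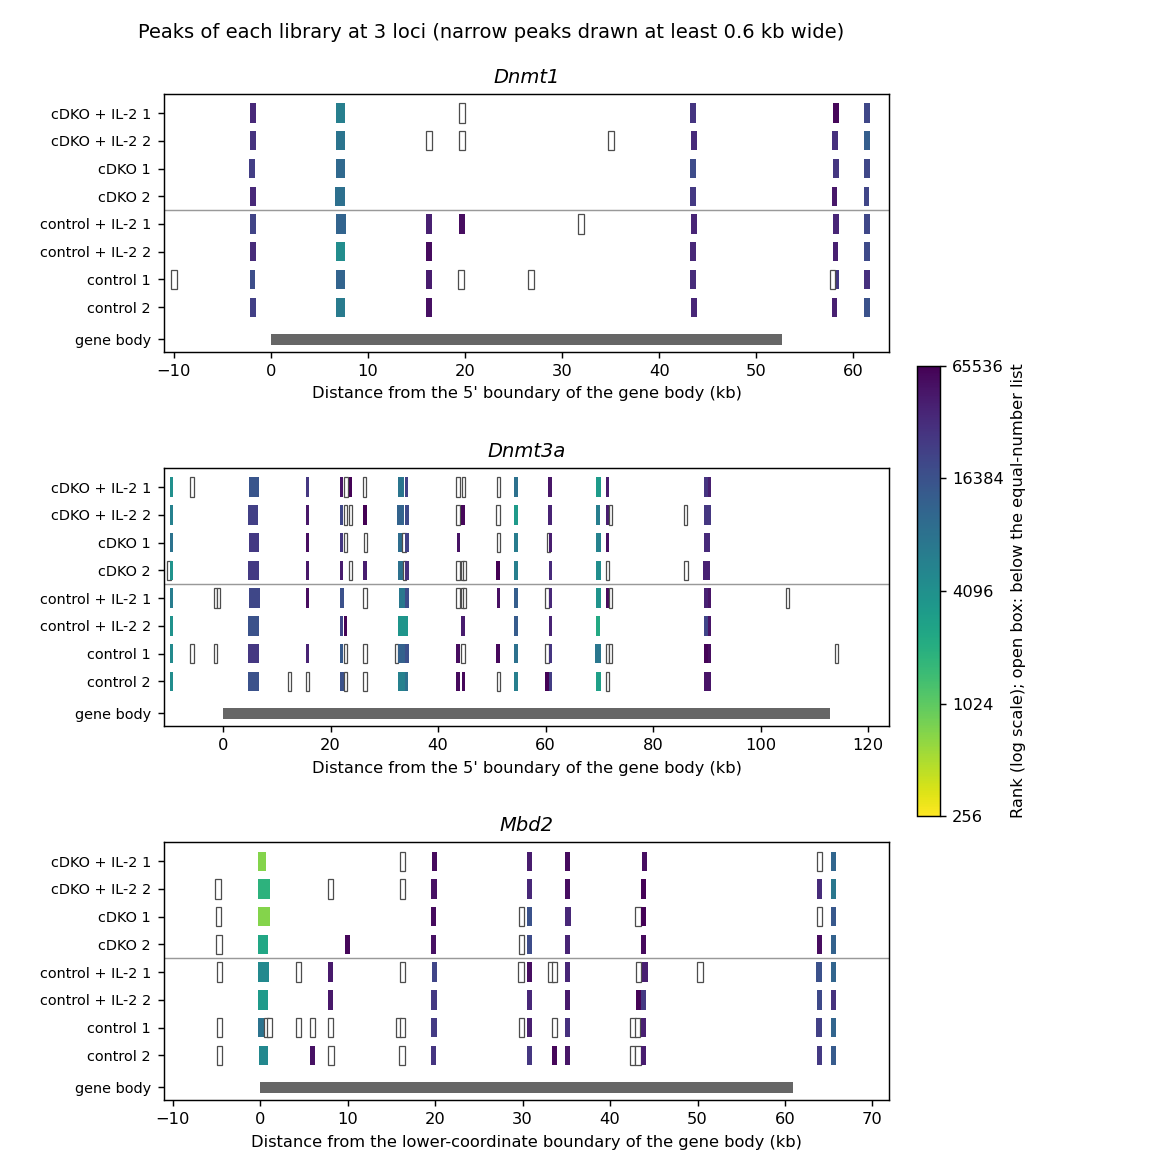
Peaks of each library along Dnmt1, Dnmt3a and Mbd2, with libraries in rows and distance in kb from the 5′ boundary of the gene body (lower-coordinate boundary for Mbd2) on the horizontal axis. Filled boxes are peaks in the equal-number list, coloured by rank on a log scale. Open boxes are weaker peaks of the deposited list. At Dnmt1, the peak at 16.29 kb is filled in the 4 control rows, open in 1 cDKO row and absent in the other cDKO rows.

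Dnmt3a (chr12:3801559-3914443, plus strand) had 8 regions in every list, the most of the 7 loci, and 5 of them had a better median rank than its main start region. The region over its 2 main starts, chr12:3806193-3808369, is the widest of the 90 at 2177 bp, with summits between -578 and 13 bp from the first start. It ranked 15181 and 23102 in cDKO cells with IL-2 and 26216 and 25505 in cDKO cells without, against 20028 and 16152 in control cells with IL-2 and 26916 and 16249 in control cells without. The genotypes overlapped (0.18 ± 0.24, limma adjusted p = 0.711). The downstream start, from which the short isoform DNMT3A2 is known to be made in embryonic and germ cells, lay in chr12:3890894-3892228. It ranked 28476 and 27254 in cDKO cells with IL-2 and 33964 and 39837 in cDKO cells without, against 39940 and 21078 in control cells with IL-2 and 54928 and 48712 in control cells without. Both genotypes overlapped there too (-0.28 ± 0.21, limma adjusted p = 0.476).

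Within the Dnmt3a gene body, chr12:3823411-3824004, 22.15 kb from the 5′ boundary, lay further down in cDKO lists. Its ranks were 49005 and 20375 with IL-2 and 26899 and 43143 without in cDKO cells, against 16726 and 21101 with IL-2 and 13605 and 16358 without in control cells. It ranked better in 1 cDKO library (20375) than in 1 control library (21101), so the sides overlapped. The difference was 0.97 ± 0.26 with a limma adjusted p of 0.0195. It did not pass without control replicate 1 (0.90, limma adjusted p = 0.0552), cDKO replicate 2 (0.80, 0.149) or cDKO + IL-2 replicate 1 (0.65, 0.200). Among the other Dnmt3a regions, the strongest at 69.78 kb (chr12:3870825-3871863) ranked 3221 to 6331 in cDKO lists and 2318 to 7246 in control lists, and one at -9.58 kb, upstream of the gene body (chr12:3791757-3792193), 3840 to 7882 and 3968 to 6346. A region at 54.55 kb (chr12:3855724-3856486) ranked 3282 to 8403 in cDKO lists and 6126 to 13507 in control lists, a difference of -0.76 ± 0.34 that did not pass (limma adjusted p = 0.182).

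Dnmt3b (chr2:153649411-153687730, plus strand) had 3 regions in every list and none passed. Its start region, chr2:153649118-153650393, ranked 22917 and 18141 in cDKO cells with IL-2 and 19080 and 30759 in cDKO cells without, against 21241 and 11413 in control cells with IL-2 and 42508 and 19196 in control cells without. The overlapping ranks gave a difference of 0.08 ± 0.27 (limma adjusted p = 0.907). A region 6.85 kb beyond the gene body, chr2:153694576-153694937, was absent from both control lists with IL-2, also at full length. It ranked 41974 and 34542 in cDKO cells with IL-2, 43392 and 54086 in cDKO cells without and 37226 and 38858 in control cells without.

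Tdg (chr10:82629814-82650799, plus strand) had 3 regions in every list. At chr10:82632897-82633255, 3.26 kb into the gene, ranks were 40895 and 41317 in cDKO cells with IL-2 and 23011 and 22937 in cDKO cells without, against 20384 and 28960 in control cells with IL-2 and 19330 and 12340 in control cells without. Within each IL-2 condition both cDKO libraries ranked it further down than both controls. The difference of 0.67 ± 0.22 did not pass (limma adjusted p = 0.0627). Without control replicate 1 or without control + IL-2 replicate 2 it did (limma adjusted p = 0.0324 and 0.0372).

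Mbd2 (chr18:70568225-70629134) carried 3 of the 4 regions that passed. The region at its lower-coordinate boundary, chr18:70567985-70569347, ranked 713 and 1871 in cDKO cells with IL-2 and 712 and 2416 in cDKO cells without, against 4803 and 3238 in control cells with IL-2 and 7948 and 4940 in control cells without. All 4 cDKO ranks were nearer the top than all 4 control ranks. The geometric mean rank was 1231 in cDKO cells and 4971 in control cells, a difference of -2.01 ± 0.49 with a limma adjusted p of 0.0110. In control replicate 1 this stretch was listed as 3 peaks, the best of them 623 bp wide, and in the other 7 libraries as 1 peak of 940 to 1318 bp. Without cDKO replicate 1 (-1.57, limma adjusted p = 0.0936) or cDKO + IL-2 replicate 1 (-1.67, 0.0805) it did not pass.

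At chr18:70587787-70588290, 19.81 kb into the gene body, the order was the other way. Ranks were 57603 and 50787 in cDKO cells with IL-2 and 55835 and 51237 in cDKO cells without, against 21125 and 26424 in control cells with IL-2 and 25233 and 27783 in control cells without. The sides were far apart and the replicates close together. Geometric means were 53790 in cDKO cells and 25010 in control cells, a difference of 1.10 ± 0.19 with a limma adjusted p of 0.000863. It was the one region of the 29 that passed in a single IL-2 condition, namely with IL-2 (1.19, limma adjusted p = 0.0242). No region passed there when any 1 of the 4 cDKO libraries was left out, and 1 did when any 1 of the 4 control libraries was. Without IL-2 the difference was 1.01 (limma adjusted p = 0.0509). Leaving out any 1 library kept the genotype call, with limma adjusted p between 0.000635 and 0.0111.

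The third Mbd2 region, chr18:70611763-70612372 at 43.84 kb, ranked 53431 and 63681 in cDKO cells with IL-2 and 63228 and 57079 in cDKO cells without, against 41736 and 26031 in control cells with IL-2 and 40480 and 41746 in control cells without. The sides did not overlap, but the cDKO ranks lay near the end of the lists. The difference was 0.69 ± 0.19 with a limma adjusted p of 0.0279, and it passed with only 2 of the 8 libraries left out, control replicate 2 (0.0479) and control + IL-2 replicate 1 (0.00869). Without control replicate 1 the limma adjusted p was 0.0632, without control + IL-2 replicate 2 it was 0.101, and without cDKO replicates 1 and 2 in turn 0.116 and 0.0749. Without cDKO + IL-2 replicates 1 and 2 in turn the limma adjusted p was 0.0624 and 0.112.

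A further Mbd2 region, 2.71 kb beyond the gene body at chr18:70631840-70632449, ranked 71435 and 33010 in cDKO lists with IL-2 and 66574 and 55321 in those without, against 16547 and 19493 in control lists with IL-2 and 22442 and 25723 in those without. All control ranks were nearer the top. Because 2 cDKO ranks lay past the end of the equal-number lists it was not in the main test. With those 2 set to rank 65812 the difference was 1.35, given without a test because 2 of its 4 cDKO values are then set and not measured. Further from the gene body, chr18:70633609-70634001 ranked 10752 and 7360 in cDKO lists with IL-2 and 14462 and 11855 in those without, against 10991 and 30042 in control lists with IL-2 and 11095 and 13815 in those without. These overlapped, and the difference of -0.47 ± 0.31 did not pass (limma adjusted p = 0.378).

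**Figure D4:**
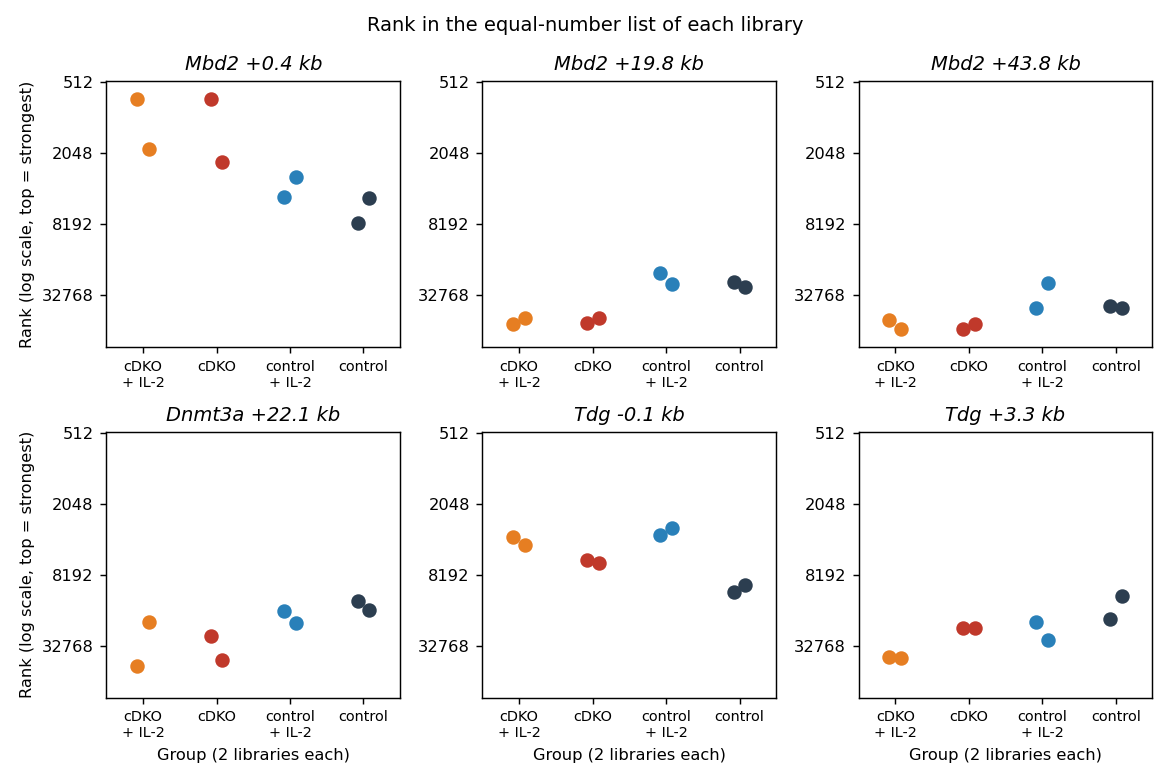
Rank of 6 regions in each library (log scale, strongest at the top), with 2 points per group. The Mbd2 boundary region (+0.4 kb) stands higher in cDKO cells and the Mbd2 regions at 19.81 and 43.84 kb higher in control cells. The Tdg start (-0.1 kb) stands higher in both groups with IL-2.

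At no locus did the number of regions in the equal-number lists differ between the genotypes after adjustment over all genes. Dnmt1 had 5, 5, 5 and 5 regions in the cDKO lists, against 7, 6, 6 and 6 in the control lists, a difference of -1.25. Uhrf2 had 1, 1, 1 and 1 in the cDKO lists, against 3, 3, 2 and 2 in the control lists, a difference of -1.5. At both loci the sides did not overlap, which held for 1.64 percent of 17551 protein-coding genes in this direction and 1.54 percent in the other. At each of them this separation rests on the region already called lower by presence, and is no separate result. Both loci reached the smallest p of the exact two-sided permutation test over 70 relabellings, 0.0286, which adjusted over all genes is 0.899. With lists of 32905 peaks the difference turned to 0.75 at Dnmt1 and was 0.0 at Uhrf2. Mbd2 had 6.75 ± 0.96 in cDKO lists and 8.25 ± 0.96 in control lists (SD, n = 4; exact permutation p = 0.143). Dnmt3a had 11.25 ± 0.50 and 10.75 ± 0.50, Dnmt3b 4.0 ± 0.0 and 3.5 ± 0.58, Tdg 3.5 ± 0.58 and 3.0 ± 0.0, and Uhrf1 3 in every list. The sign at Dnmt3a, Dnmt3b and Tdg also turned with another list length, to -0.5 at Dnmt3a and Tdg with 32905 peaks and to -0.25 at Dnmt3b with full lists. In the full deposited lists, the 7 loci held 46, 54, 46 and 51 peaks in the cDKO libraries and 65, 38, 81 and 55 in the control libraries. Per 10000 peaks of each list this is 4.69 to 4.75 in cDKO and 5.55 to 5.95 in control libraries. The equal-number lists held 34 or 35 regions of the 7 loci in cDKO libraries and 36 to 38 in control libraries. How often other sets of genes separate the genotypes in this way was not tested, so these totals are a description.

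**Figure D5:**
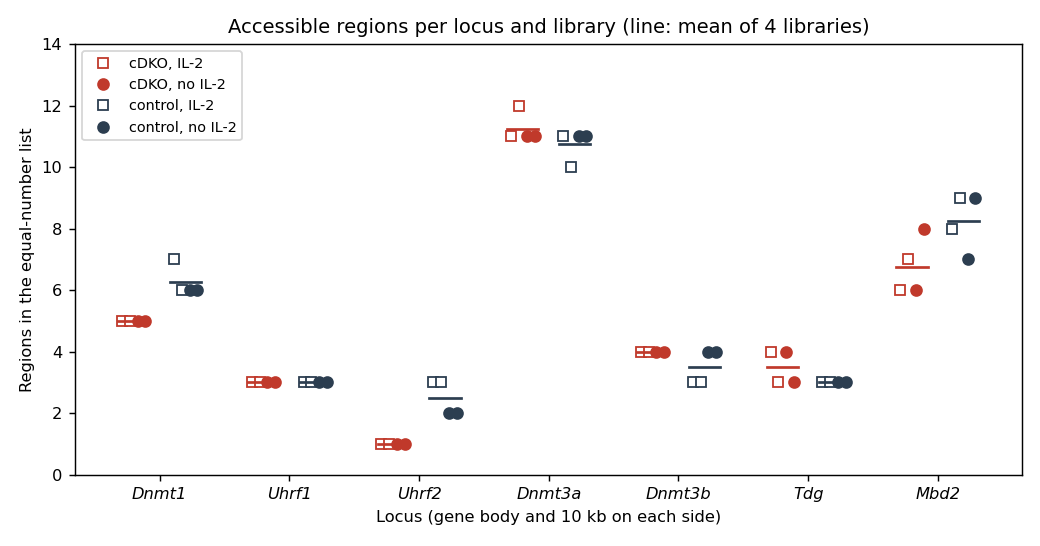
Number of regions of each locus in the equal-number list of each library. Squares are libraries with IL-2, circles without, cDKO left of control, and lines are means of 4 libraries. Dnmt1 and Uhrf2 have fewer regions in every cDKO library (5 and 1) than in any control library (6 or 7, and 2 or 3). At each of these loci the separation rests on the region called lower by presence.

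Added IL-2 moved none of the 29 regions past the threshold. With limma, 0 of 29 had an adjusted p under 0.05, 7 had an unadjusted p under 0.05 and the lowest adjusted p was 0.0512. Left-out libraries gave 2 without control replicate 1, 2 without control + IL-2 replicate 1 and 1 without control + IL-2 replicate 2 (2.3, 3.4 and 1.81 percent of all regions). Of all 40694 regions 2.45 percent passed, 1.37 percent nearer the top with IL-2 and 1.08 percent further, and 14.5% had an unadjusted p under 0.05. Presence in the lists set apart 0 of the 51 member regions in either direction over the 8 libraries (0.348 percent of all regions higher, 0.229 percent lower), and 1 lower without cDKO replicate 2. Numbers of regions per locus differed by at most 0.5 between libraries with and without IL-2, with exact permutation p of 0.429 or more, and at no locus did the sides separate (0.558 percent of all genes higher and 0.541 percent lower did).

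The Tdg start was the region with the largest IL-2 difference among the 29. Its region, chr10:82629144-82630391, ranked 3904 and 4545 in cDKO cells and 3746 and 3286 in control cells with IL-2, against 6117 and 6458 in cDKO cells and 11375 and 9894 in control cells without. Every library with IL-2 ranked it nearer the top than every library without, a pattern seen in 2.77 percent of all regions. Each library listed it as 1 peak, with summits between -82 and -21 bp from the start. The difference, IL-2 minus none, was -1.09 ± 0.34 and did not pass (limma adjusted p = 0.0978). Of the regions around it, the one 3.26 kb into the gene differed by 0.75 ± 0.22 in the other direction (limma adjusted p = 0.0798). Whether that region 3.26 kb into the gene passed depended on which single library was left out.

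At Mbd2, chr18:70598788-70599211, 30.77 kb into the gene body, had the lowest adjusted p for IL-2. It is named for that reason, after its values were seen. It ranked 43263 and 35135 in cDKO cells and 53473 and 35573 in control cells with IL-2, against 16101 and 18413 in cDKO cells and 41078 and 27324 in control cells without. In cDKO cells both libraries with IL-2 ranked it further down than both without, and in control cells the ranks overlapped. The difference over both genotypes was 0.78 ± 0.21 (limma adjusted p = 0.0512). The Uhrf1 window held the 1 region further down in every library with IL-2 (3.01 percent of all regions), at Kdm4b (chr17:56330408-56331018), with ranks of 26922, 25833, 48756 and 40925, against 24084, 16480, 21961 and 25297 without (0.66 ± 0.21, limma adjusted p = 0.103). The downstream Dnmt3a start differed by -0.62 ± 0.21 (limma adjusted p = 0.139), and passed without control + IL-2 replicate 1 (0.0231).

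Within the arms only 2 libraries faced 2, and no permutation p can pass there (the smallest is 0.333). For cDKO against control with IL-2, 1 of 51 regions was in both lists of cDKO cells alone (3.61 percent of all regions) and 3 in both lists of control cells alone (3.97 percent). The 1 in cDKO lists is the Dnmt3b region beyond the gene body, and the 3 in control lists are the Dnmt1 and Uhrf2 regions above and chr18:70576077-70576448 in Mbd2, 8.04 kb into the gene body. Without IL-2, 0 of 51 were in cDKO lists alone (3.86 percent) and 2 in control lists alone (4.19 percent), again the Dnmt1 and Uhrf2 regions. In control cells, IL-2 went with 1 region present in both lists (2.39 percent of all) and 2 absent from both (2.51 percent). The Mbd2 region at 8.04 kb was the one present, at ranks 44814 and 45707 with IL-2 and past the end of the equal-number lists at 67943 and 81646 without. Those absent were the Dnmt3b region and chr12:3845123-3845469 in Dnmt3a, which was at 79549 in 1 deposited list with IL-2 and ranked 54389 and 56624 without. In cDKO cells IL-2 set apart 0 of 51 in either direction (2.79 percent of all regions higher, 2.94 percent lower). Leaving out 1 library, so that 1 faced 2, raised these counts. Without IL-2, cDKO-only regions were 1 without control replicate 1 and 2 without either cDKO replicate, and control-only regions 6 without control replicate 1. With IL-2, cDKO-only regions were 3 without control + IL-2 replicate 1, 2 without cDKO + IL-2 replicate 1 and 3 without its replicate 2, and control-only regions 6 without either control + IL-2 replicate. For IL-2 in control cells, 4 were present without either control + IL-2 replicate and 5 absent without control replicate 1. For IL-2 in cDKO cells, 1 was present without cDKO replicate 1 or either cDKO + IL-2 replicate, and 2 and 1 were absent without cDKO replicates 1 and 2.

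In limma, 0 of 29 regions passed for genotype without IL-2 (5 at an unadjusted p under 0.05) and 1 with IL-2, against 1.93 and 1.82 percent of all regions. Without IL-2 these divide into 0.6 percent nearer the top and 1.33 percent further, and with IL-2 into 0.722 and 1.1 percent. For IL-2, 0 passed in cDKO cells and 0 in control cells (0.41 percent of all, 0.285 nearer and 0.125 further, and 0.133 percent, 0.111 nearer and 0.0221 further), with 4 and 5 at an unadjusted p under 0.05. Without control + IL-2 replicate 1 or 2, 1 region passed for genotype without IL-2, and without replicate 2 of that group 1 passed for IL-2 in cDKO cells. The interaction of genotype and IL-2 passed at 0 of the 29 and at 0 of all 40694 regions (0.0 percent), and 1 and 1723 had an unadjusted p under 0.05.

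Other genes of methylation, demethylation and methyl-CpG reading were counted in the same windows. The 44 genes held 389 regions, of which 126 were in all 8 lists. In limma, 3 lay nearer the top in cDKO cells and 2 further, together 3.97%, set beside 9.0 percent of all regions, and the median difference was -0.13. Those nearer were at Chd4, the NuRD remodeller, with ranks of 26757, 27661, 23998 and 26021 in cDKO lists, against 54422, 49290, 63767 and 46555 in control lists (-1.03 ± 0.19, limma adjusted p = 0.00158), at Gadd45g (-0.69, 0.0349) and at Tet3 itself (-0.65, 0.0283). Those further were at Usp7, a deubiquitinase that acts on DNMT1 and UHRF1 (0.67, limma adjusted p = 0.0310), and at the NuRD subunit gene Gatad2b (0.62, 0.0395). By presence, 6 of 253 regions were higher in cDKO cells, at Hells, Usp7, Mbd4, Tet2, Tet3 and Nsd1, and 2 were lower, at Hells and Nsd1, beside 0.706 percent higher and 1.12 percent lower among all regions. With IL-2, 2 were higher, at Ehmt2 and Tet2, and 0 were lower (0.348 and 0.229 percent of all regions), and limma called 0. Among the genes called for genotype, Chd4 and Mbd4 lie on chromosome 6, as does Tet3, which is lost in cDKO cells. Dppa3, Gadd45a and Mat2a, also on chromosome 6, had no called region. The part of this shared chromosome in the calls was not tested.

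The genes whose mean log2 rank over the 8 libraries was most like that of a member, by Pearson r over genes with at least 3 regions in all lists, are given as a description. They were Rai1 (r = 0.975) and Hmgxb4 (0.957) for Tdg, Bmf (0.961) and Msl1 (0.959) for Mbd2, and Ninj2 (0.952) and Foxn3 (0.950) for Dnmt3b. For Dnmt3a they were Tedc1 (0.945) and Rab34 (0.939), for Uhrf1 Selenbp1 (0.944) and Herpud1 (0.935), and for Dnmt1 Pcdhga11 (0.935) and Bckdhb (0.926). Each pair tops a ranking of at least 6552 genes over 8 points, and genes sharing a region with the member were left out. Uhrf2, with 1 region in all lists, was not ranked. The means also take in regions of a window that lie outside the gene body. For Uhrf1 these were chr17:56325381-56326408 and chr17:56330408-56331018, both overlapping Kdm4b.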

How the data were processed

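ATAC-seq peak lists of 8 libraries were used as deposited, 1 list per library. MACS2 2.2.7.1, HOMER 4.11.1, ChIPseeker 1.18.0, DiffBind 2.10.0, SAMtools 1.3.1, Picard, Bowtie2 2.4.1 and Trimmomatic 0.39 and build GRCm38/mm10 were used, per the submitters' processing notes, which assign no roles. How reads were shifted and deduplicated, how peaks were called and how deep the libraries are stay unstated in these sources. Each peak carries the authors' deposited fold enrichment over background (a ratio), −log10 p and −log10 q, which here only rank and describe peaks within a list. The largest q was 0.049 to 0.05 in every deposited list.

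Overlapping peaks (at least 1 bp) were merged. A region took the rank of its best peak by −log10 p, and equal-number lists kept 65811 peaks. limma 3.58.1 (trend, 4 groups, R 4.3.3) was fitted to log2 ranks of 40694 regions in all 8 lists, with Benjamini-Hochberg adjustment over all of them. It was also run on simulated data, the outcome of which is not reported here. Regions per locus were compared by exact permutation, adjusted over 17551 protein-coding genes. Presence calls have no test.

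Named regions were those at gene starts (for Mbd2, within 1 kb of a gene end), the 3 best by median rank, and all that were called, up to 3 per direction for 2 libraries against 2. Genes most like a member excluded those sharing a region with it, an exception added after the values were seen. The members and lists were chosen with earlier results of these data known. Starts and gene bodies came from RefSeq, GRCm38.p6.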

Additional observations from a re-analysis of the deposited data

Results flagged for a closer look

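At 2 regions the genotypes or IL-2 conditions moved in opposite directions, with all libraries of one side moving one way. The Dnmt3b region inside the gene at chr2:153668838-153669096 ranked 29476 and 33604 in cDKO cells with IL-2 and 65293 and 49120 in cDKO cells without, against 44318 and 54146 in control cells with IL-2 and 41198 and 36790 in control cells without. The IL-2 difference was -0.85 in cDKO cells and 0.33 in control cells, and the genotype difference was -0.64 with IL-2 and 0.54 without. The interaction was -1.18 ± 0.38 (SE) and did not pass (limma adjusted p = 0.999). At the Tdg start, chr10:82629144-82630391, the genotype difference was 0.26 with IL-2 and -0.76 without, and the interaction of 1.02 ± 0.68 did not pass (limma adjusted p = 0.999). No cause was tested.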

How the results depend on the processing

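Peak lists hold no reads, so the counting error that ranks carry cannot be estimated from them, and with 2 libraries per group changes of small size are hard to call. Lists of equal number depend on where they end: with the full deposited lists, or only peaks with −log10 q of at least 5, the regions lower in cDKO cells by presence were 0 instead of 2. Numbers of regions per locus were also sensitive to list length, and the causes were not tested. Genotype and IL-2 calls of the other kinds kept their counts within 1.5 times of the main ones except as follows.

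For cDKO against control without IL-2, regions higher by presence were 1 with lists of 32905 peaks and 1 with flanks of 25 kb (0 in the main lists), and regions lower were 8 with full lists and 4 where a peak had to cover 50% of its region (2 in the main lists). With IL-2, regions higher were 2 with full lists, 2 at the stricter q, 0 without flanks and 2 with flanks of 25 kb (1 in the main lists), and regions lower were 1 at the stricter q (3). For IL-2 in control cells, regions higher were 0 with full lists, 0 with lists of 32905, 0 at the stricter q and 2 with flanks of 25 kb (1), and regions lower were 4 with full lists and 1 without flanks (2). For IL-2 in cDKO cells, regions higher were 2, 2, 1 and 1 with full lists, lists of 32905, the stricter q and 50% cover (0), and regions lower were 2, 2 and 2 with the first 3 of these (0). Leaving out 1 library gave 0 to 1 regions lower for IL-2 over all libraries, 0 to 2 higher and 2 to 6 lower for genotype without IL-2, and 1 to 3 higher and 3 to 6 lower for genotype with IL-2. For IL-2 it gave 1 to 4 higher and 2 to 5 lower in control cells and 0 to 1 higher and 0 to 2 lower in cDKO cells.

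The difference in regions per locus changed sign with lists of 32905 peaks at Dnmt1 (0.75 for cDKO minus control, -0.75 for IL-2 minus none), Dnmt3a (-0.5, genotype), Tdg (-0.5, genotype) and Dnmt3b (1.25, IL-2). With full lists it did so at Dnmt3b (-0.25) and Tdg (-0.5) for genotype and at Uhrf2 (-2.0) for IL-2. At the stricter q it did so for IL-2 at Dnmt1 (-0.5) and Uhrf2 (-1.25), and with 50% cover at Dnmt3a for genotype (-0.25) and Dnmt1 for IL-2 (-0.25). Leaving out 1 library gave -0.17 to 0.50 at Dnmt1 for IL-2.

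In limma, members past the threshold for genotype were 1 of 14 with lists of 32905, 0 of 18 with 50% cover, where none of the 4 called regions could be tested, and 6 of 35 with absent regions at the last rank, where 1 of the 6 has all 4 cDKO values set in this way and 1 has 2 of 4, so that the 6 is no added support (4 of 29 in the main lists; 4.36, 6.72 and 11.9 percent of all regions passed). The Mbd2 region at 43.84 kb did not pass on normal scores of the rank (adjusted p = 0.0531). For genotype with IL-2 they were 0 on normal scores, 0 with lists of 32905, 2 with absent regions at the last rank and 0 with 50% cover (1). Leaving out 1 library gave 1 to 5 for genotype, 0 to 2 for IL-2, 0 to 1 for genotype without IL-2, 0 to 1 with IL-2 and 0 to 1 for IL-2 in cDKO cells. It also turned the sign of differences that were close to 0: -0.29 to 0.39 at the Dnmt1 start, -0.24 to 0.22 at the Uhrf2 start and -0.21 to 0.36 at the Dnmt3b start for genotype, and -0.87 to 0.015 at the Mbd2 boundary for IL-2. On normal scores the Dnmt3b start differed by -0.012.

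Replicate numbers were not taken to pair the samples, since deviations of same-numbered libraries went together in the control groups (r = 0.375) but not in the other pairs of groups (-0.19 to 0.0375). With the number as a replicate block, 4 members passed for genotype and 1 for IL-2 in limma (9.4 and 2.6 percent of all regions). In the paired permutation of regions per locus (replicate block) the smallest possible p is 0.125, reached at Dnmt1 (-1.25), Uhrf2 (-1.5) and Mbd2 (-1.5).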
